A study of Mus musculus with 3 samples.

Results

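The hairpins Mirlet7b, Mirlet7d, Mirlet7g, Mirlet7i and Mir98 are let-7 genes whose mature 5p arm has a genomic copy of its own, and they were chosen by gene name, with no threshold on read values. They are 5 of the 12 let-7 hairpins of the mouse and 5 of the 1005 mouse miRNA hairpins listed by RefSeq. Reads of each were measured in 3 small RNA libraries of MIN6, an insulin-secreting line derived from a mouse pancreatic beta cell tumor and used in place of primary beta cells. All 3 libraries (replicates 1, 2 and 3) are labelled as high glucose and come from cells kept in DMEM with 25 mM glucose and heat-inactivated serum, so there is 1 condition and no treated or control group. The libraries hold 9269795, 10816006 and 10218743 mapped reads, and values are given in RPM (reads per 1000000 mapped reads) as mean ± SD. The methods call them biological replicates but do not say whether they were separate cultures, so that the SD may be technical in part, and 1 cell line stands for the cell type. As a check of the label, miR-375-3p, the marker miRNA of pancreatic endocrine cells, held 334275 to 371065 RPM and miR-7a-5p held 355 to 439 RPM, while miR-142a-3p of blood cells held 0.539 to 1.11 RPM. The markers miR-122, miR-1, miR-133a and miR-223 were not analysed here.

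The let-7 miRNAs are a deeply conserved family that shares the seed at bases 2 to 8 of the 5p arm, the part of a miRNA that pairs with its target mRNAs, and they are known for repressing growth-promoting genes such as Hmga2 and the Myc and Ras genes as cells differentiate. Their precursors are controlled after transcription: the RNA-binding protein LIN28 blocks their processing and recruits enzymes that add a uridine tail to the precursor, and most let-7 precursors have a shortened 3′ end to which terminal uridylyl transferases add a lone uridine before Dicer cuts. The added uridine is then part of the 3p arm. In whole animals the balance of LIN28 and let-7 is known to affect glucose metabolism.

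The 5p arms are given here from the most to the fewest reads in the MIN6 libraries, with the seed in capitals. They differ from each other and from other let-7 miRNAs at few bases, which decides how far a read can be given to 1 gene. The sequences are those of RefSeq for GRCm38.p6, and all 5 members matched by symbol.
let-7i-5p: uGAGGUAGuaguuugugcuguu
let-7b-5p: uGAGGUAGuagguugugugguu
let-7g-5p: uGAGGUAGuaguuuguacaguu
miR-98-5p: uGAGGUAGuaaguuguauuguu
let-7d-5p: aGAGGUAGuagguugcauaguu
All 5 arms carry the same seed. Counted over 22 bases from the 5′ end, let-7b differs from the let-7c arms only by G17A, let-7g differs from let-7i by A17G and A19U, miR-98 differs from let-7a by A11G and U19A, and let-7d differs from let-7a by A1U and C16U, with the member's base first. Searched against the 1005 RefSeq hairpins, the first 9 bases of let-7d-5p, the first 11 of miR-98-5p and the first 17 of let-7b-5p, let-7g-5p and let-7i-5p occur in no other hairpin.

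On the mm9 build of the deposited alignments, the let-7b hairpin lies on the plus strand at chr15:85537749-85537833 and let-7d on the minus strand at chr13:48631381-48631483. The let-7g hairpin lies on the plus strand at chr9:106081171-106081258, let-7i on the minus strand at chr10:122422696-122422780, and miR-98 on the plus strand at chrX:148347757-148347864. The hairpins of let-7b, let-7d and miR-98 have let-7 neighbours on the same strand, with 621 bases between let-7b and let-7c-2, 785 bases between miR-98 and let-7f-2, and 1714 and 2064 bases between let-7d and its neighbours let-7f-1 and let-7a-1. In the GENCODE annotation of GRCm38, let-7g lies in an intron of Wdr82, which encodes a subunit of histone H3 lysine methyltransferase complexes, and miR-98 in an intron of Huwe1, which encodes a ubiquitin ligase. The other 3 lie in exons of transcripts without a coding sequence at that place, namely let-7b in Lncppara, let-7d in 6720427I07Rik and let-7i in D630033A02Rik. Each hairpin was placed where none of the mismatching bases of the reads, 4450 to 44037 per member, equalled its own base, and the 5p start of every member was also found by its value in the authors' expression table. At the reference 5′-start of let-7b, 97.0% ± 0.334 of the reads (SD, n = 3) had whole-number values, as an undivided read must have, compared with 99.3% to 99.9% for the other members. A divided read can have a whole-number value too. The let-7i share was 99.9%, 99.9% and 98.2% in replicates 1, 2 and 3, where a form divided with another place had 1010, 1105 and 1185.5 reads.

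The 5p arms of the members had the same order of levels in all 3 libraries, led by let-7i. At the reference 5′-start, let-7i-5p held 6105, 5883 and 6354 RPM in replicates 1, 2 and 3, or 6114 ± 236 RPM. let-7b-5p followed with 2359, 3426 and 2316 RPM (2700.3 ± 629), and let-7g-5p with 1864, 2139.7 and 1962 RPM (1989 ± 139.9). The least abundant were miR-98-5p with 812, 839 and 826 RPM (826 ± 13.3) and let-7d-5p with 494, 602 and 591 RPM (562 ± 59.4). No neighbours in this order overlapped: the lowest library of each member lay above the highest library of the next. The narrowest step on average was from let-7b to let-7g, 1.27-fold, 1.60-fold and 1.18-fold in replicates 1, 2 and 3, and the steps from let-7i to let-7b (2.59-fold, 1.72-fold and 2.74-fold) and from let-7g to miR-98 (2.29-fold, 2.55-fold and 2.38-fold) were both wider on average. let-7i alone made up 50.3% ± 4.02 of the summed 5p reads of the members, let-7b 22.03% ± 3.98, let-7g 16.3% ± 0.291, miR-98 6.78% ± 0.246 and let-7d 4.60% ± 0.333. Since the libraries share 1 condition and 3 pairs cannot reach a two-sided exact p below 0.25, no test of these differences is given. Levels and shares here count reads. Whether different sequences, the 2 arms of a hairpin included, enter a library equally well was not measured. The order of the molecules in the cells may therefore differ, and replicates prepared in the same way cannot show this.

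**Figure D1:**
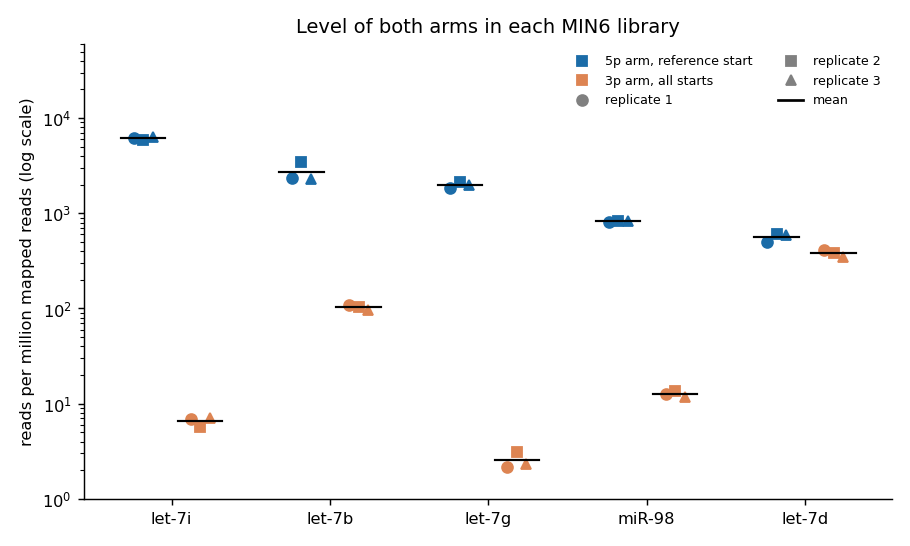
Reads per 1000000 mapped reads (log scale) of the 5p arm at its reference start and of the 3p arm over all starts, for each member, with 1 point per MIN6 library and the mean as a bar. The 5p levels step down from 6114 RPM for let-7i to 562 RPM for let-7d, whereas the 3p levels are led by let-7d at 382 RPM and end with let-7g at 2.55 RPM.

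Among the members, let-7b moved most between libraries and miR-98 least. The highest library of let-7b-5p was 1.48-fold above its lowest, and replicate 2 stood above replicates 1 and 3, which lay close together. For let-7d, let-7g, let-7i and miR-98 the highest library was 1.22-fold, 1.15-fold, 1.08-fold and 1.03-fold above the lowest. Of the other let-7 hairpins, let-7f-1 and let-7f-2 were highest in replicate 3 and the rest in replicate 2. At let-7c-1 and let-7c-2 the highest library was 1.43-fold above the lowest, and at let-7e 1.60-fold. Among 120 other miRNA 5′-starts with at least 100 RPM, this spread had a median of 1.15-fold, 2 starts exceeded let-7b, and all 120 exceeded miR-98. These are genomic starts, so a miRNA with more than 1 copy, such as miR-24-3p, can hold more than 1 of them. By the smallest root mean square difference of centred log2 RPM over the 3 libraries, the starts most like let-7b-5p were let-7e-5p at 0.0606 and miR-184-3p at 0.0658, which were also highest in replicate 2, with 512 and 175 RPM against 319 and 126 RPM in replicate 1. The nearest starts were miR-140-3p (0.0375) and let-7a-5p (0.0421) for let-7d, and miR-470-5p (0.0336) and miR-181b-5p of Mir181b-1 (0.0396) for let-7g. For let-7i they were miR-93-5p (0.0222) and miR-132-3p (0.0223), and for miR-98 they were miR-92a-3p (0.0145) and miR-181b-5p of Mir181b-2 (0.0334). Between members the same measure ran from 0.0567 for let-7i and miR-98 to 0.301 for let-7i and let-7b. With 3 libraries each profile rests on 3 points, so this likeness is a description.

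The other 7 let-7 hairpins had levels in the same range, and all of them but let-7e share their 5p reads with a second copy. At their reference starts, let-7c-1 and let-7c-2 held 5434 and 5507 RPM, let-7f-1 and let-7f-2 3274 and 3505 RPM, let-7a-1 and let-7a-2 2150.0 and 2144 RPM, each from reads divided equally among matching places, and let-7e held 384 RPM. The 5 members summed to 12191 ± 640.2 RPM, or 35.4% ± 1.70 of the 5p reads of all 12 hairpins. On the 3p side the proportions were different, since the members held 507 ± 40.2 RPM, or 84.3% ± 0.301 of the 3p reads of all 12 hairpins. Most of this was let-7d.

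The 3p arms pair with the 5p arms in the precursor and are mostly discarded. They are given here with bases 2 to 8 from their RefSeq start in capitals, because the seeds that all 5p arms share are mostly not shared on this side.
let-7d-3p: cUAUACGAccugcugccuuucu
let-7b-3p: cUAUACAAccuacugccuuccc
miR-98-3p: cUAUACAAcuuacuacuuuccu
let-7i-3p: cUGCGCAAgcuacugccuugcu
let-7g-3p: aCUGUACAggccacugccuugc
let-7b-3p and miR-98-3p carry the same seed, and let-7d-3p differs from it by 1 base, while let-7g-3p and let-7i-3p each have their own. The 3p arms differed widely in level and did not follow the order of the 5p arms. let-7d-3p held 413, 386 and 346 RPM (382 ± 33.4), below its own 5p arm in every library (494, 602 and 591 RPM). let-7b-3p held 109.6, 103.4 and 96.7 RPM (103.2 ± 6.46). miR-98-3p held 12.6, 13.5 and 11.6 RPM (12.6 ± 0.927), let-7i-3p 6.90, 5.73 and 7.14 RPM (6.59 ± 0.755), and let-7g-3p 2.16, 3.14 and 2.35 RPM (2.55 ± 0.523). No neighbours in this order overlapped, but the last rests on 20 to 34 reads per library, where 3 reads correspond to 0.277 to 0.324 RPM. let-7i thus had the most abundant 5p arm and the fourth of the 5 3p arms.

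The share of the hairpin's reads on the 5p arm set let-7d apart from the other members. The 5p arm held 54.9% of the let-7d reads of both arms in replicate 1 (95% Wilson interval 53.8 to 55.9%, which covers counting error only), 61.3% in replicate 2 and 63.4% in replicate 3, or 59.8% ± 4.42. In replicate 1 its 5p arm was at its lowest of the 3 libraries and its 3p arm at its highest. The 5p share was 96.2% ± 0.771 for let-7b and 98.5% ± 0.0989 for miR-98, and at least 99.85% in every library for let-7g and let-7i. Among the other let-7 hairpins it was lowest for let-7e, at 95.6% ± 1.19. The let-7d hairpin is printed with let-7b, the next in 3p level, with both mature arms in capitals (RefSeq, GRCm38.p6).
let-7b hairpin: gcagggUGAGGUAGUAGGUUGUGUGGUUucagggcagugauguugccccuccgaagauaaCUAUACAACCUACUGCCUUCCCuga
let-7d hairpin: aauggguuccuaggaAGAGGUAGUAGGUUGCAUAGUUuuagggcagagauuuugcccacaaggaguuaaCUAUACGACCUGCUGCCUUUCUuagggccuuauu

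The 5′ ends of the members were nearly uniform, so that their seeds were kept in almost all reads. On the 5p arm, the reference start held 99.3% ± 0.0963 of the reads of let-7b, 99.0% ± 0.163 of let-7g, 98.5% ± 0.124 of let-7d, 99.7% ± 0.0396 of let-7i and 99.7% ± 0.0617 of miR-98. No other start of a 5p arm held 1% of its reads in every library. The nearest was the start 1 base upstream in let-7d, with 46, 64 and 60 reads, and in let-7g, with 171, 159 and 180 reads. The 3p arms varied more. let-7d-3p had a second start 1 base downstream with 182, 210 and 147 reads beside 3634, 3957.5 and 3383 at the reference start, and miR-98-3p had one with 13, 24 and 28 reads beside 104, 122 and 91. A start shifted by 1 base moves the seed by 1 base. let-7g-3p was read 1 base downstream of its RefSeq start in 19, 32 and 20 of its 20, 34 and 24 reads, and the annotated start did not reach 10 reads over the 3 libraries. let-7b-3p and let-7i-3p had no second start of 1% and 10 reads in every library.

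let-7b also had reads outside both arms, directly upstream of the 5p arm. Starts 18, 17 and 16 bases before the 5p start held 28, 49 and 7.5 reads in replicate 1, 28, 63 and 17 in replicate 2, and 22, 45 and 7 in replicate 3, and all of these starts lie before the first base of the RefSeq hairpin. They were mostly 18, 17 and 16 nt long, and 100%, 99.4% and 100% of them ended at the base that precedes the 5p start. Together with all other reads before the arm they amounted to 9.22 ± 1.49 RPM for let-7b, compared with 0.0308 to 0.542 RPM for the other members. Among the other let-7 hairpins, let-7e held 5.27 ± 1.54 RPM and let-7f-2 3.54 ± 0.388 RPM before the arm. No loop start of any member reached 10 reads over the 3 libraries.

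The 5p arms were mainly 22 nt long, with let-7b the most varied in length. Reads of 22 nt made up 61.5% ± 0.435 of the reads at the reference start of let-7b, 71.3% ± 0.269 of let-7d, 82.0% ± 0.354 of let-7g, 82.6% ± 0.856 of let-7i and 82.1% ± 1.17 of miR-98. In let-7b, reads of 23 nt made up 16.7% ± 0.442 and reads of 21 nt 13.5% ± 0.342, and a further 2.85% ± 0.0347 had 24 nt. let-7d had 15.97% ± 0.635 of 21 nt and 9.00% ± 0.691 of 23 nt. In let-7g, let-7i and miR-98, reads of 21 nt made up 12.1%, 5.77% and 11.04% and reads of 23 nt 4.02%, 6.69% and 4.65%. The median of the other 120 starts was 28.5% of 22 nt reads, and 16 of them exceeded let-7g, let-7i and miR-98. The high share was not particular to the members. With the libraries pooled, it was 83.9% in let-7c-1, 82.8% in let-7c-2, 80.9% in let-7f-1, 77.9% in let-7a-1, 75.6% in let-7f-2 and 67.2% in let-7e.

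**Figure D2:**
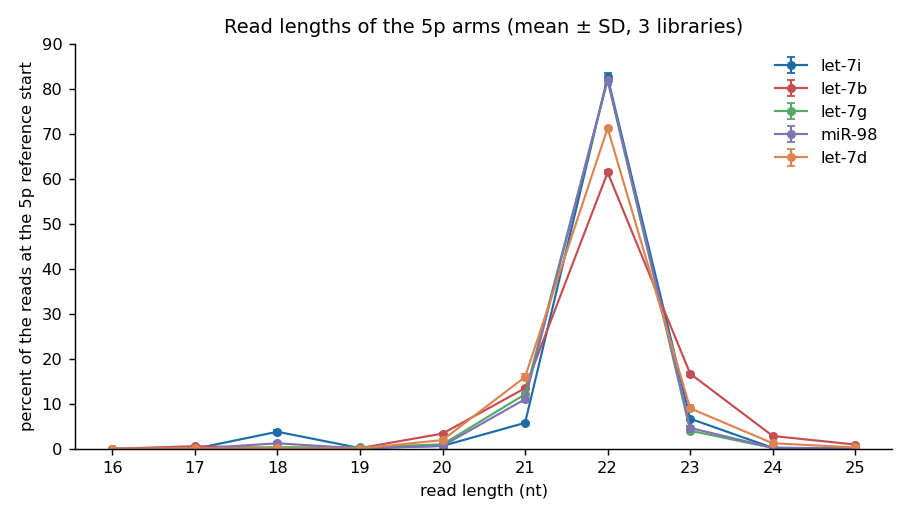
Percent of the reads at the 5p reference start by read length in nt, as the mean of 3 libraries with the SD as error bar, for each member. All members peak at 22 nt, let-7b has the broadest peak with 16.7% of 23 nt, and let-7i has a small separate peak of 3.79% at 18 nt.

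A small group of let-7i reads was 18 nt long. They made up 3.24%, 3.97% and 4.16% of its 5p reads in replicates 1, 2 and 3 (3.79% ± 0.486), with fewer reads of 17 and of 19 nt, and miR-98 had 1.22% ± 0.185 of this length. In let-7g, let-7b and let-7d, 18 nt reads made up 0.351%, 0.162% and 0.0704%. Among the other 120 starts the median was 0.0273%, and 1 start exceeded let-7i while 3 exceeded miR-98. The reads of 18 nt are long enough to tell let-7i from let-7g, from which it first differs at base 17, and 99.9% ± 0.0598 of them had whole-number values in let-7i. The form is shown in lower case, as the first 18 bases of the mature arm.
let-7i-5p, 18 nt form: ugagguaguaguuugugc

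At the 3′ end of the 5p arms, a last base that differs from the genome was found in 7.46% ± 0.358 of the reads of let-7b, 7.07% ± 0.0863 of let-7i, 4.83% ± 0.252 of miR-98, 3.62% ± 0.286 of let-7d and 2.00% ± 0.0716 of let-7g. The differing base was mainly U or A. In let-7i, 4.23% ± 0.0341 of the reads ended in such a U and 2.60% ± 0.0657 in such an A, and in miR-98 3.01% ± 0.101 and 1.69% ± 0.287. In let-7b the shares were 2.99% ± 0.152 for U and 3.19% ± 0.158 for A, with 1.00% ± 0.0837 for G. In let-7d and let-7g, A was the main differing base with 2.54% ± 0.269 and 1.59% ± 0.0926, and U made up only 0.197% ± 0.0205 and 0.156% ± 0.00619. The genome itself has a U after base 22 of let-7b, let-7d and let-7g, where an added U matches it, and a G after base 22 of let-7i and miR-98, where an added U is a mismatch. The arms of let-7i and let-7b are shown with the bases that follow, base 23 in capitals, and with the extended let-7i reads, the differing base in capitals.
let-7i-5p in the genome: ugagguaguaguuugugcuguuGguc
let-7b-5p in the genome: ugagguaguagguugugugguuUcag
let-7i-5p with U added: ugagguaguaguuugugcuguuU
let-7i-5p with A added: ugagguaguaguuugugcuguuA

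As a share of all 5p reads, 23 nt reads ending in U, matching or not, ranged from 2.41% in let-7g to 13.5% in let-7b. Counted only over the reads that reach base 23, whether or not the base matches the genome, the U shares of the members were more alike. U was read at base 23 in 75.4% ± 0.832 of these reads in let-7b, 65.3% ± 1.39 in let-7d, 58.8% ± 3.06 in let-7g, 60.6% ± 0.0346 in let-7i and 62.9% ± 4.61 in miR-98, and A in 19.6%, 28.7%, 37.5%, 37.4% and 34.0%. In let-7i and miR-98 the G of the genome was read in 1.27% ± 0.403 and 2.59% ± 0.976 of them. Nearly all of these reads of let-7i and miR-98 thus had a base 23 that differs from the genome, while in let-7b, let-7d and let-7g an added U and a later cut cannot be told apart. The let-7i reads with an added A are counted only in part in these values. Their 1010, 1105 and 1185.5 reads stand with identical values at a place on mm9 chromosome 3 with a start at base 139691245, where the same reads also have 1 mismatch, so each read was divided between both places, and which place they come from was not tested. If all were counted at let-7i, the reads ending in a differing A would be 4.31% ± 0.104 of its 5p reads, A would be 50.1% ± 0.664 and U 48.4% ± 0.246 of the reads at base 23, and the level would be 6223 ± 243 RPM. In let-7b, 4 forms of 24 and 25 nt were divided in the same way with let-7c-2 or let-7c-1, and counted in full at let-7b its reads ending in a differing U would be 4.44% ± 0.142.

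**Figure D3:**
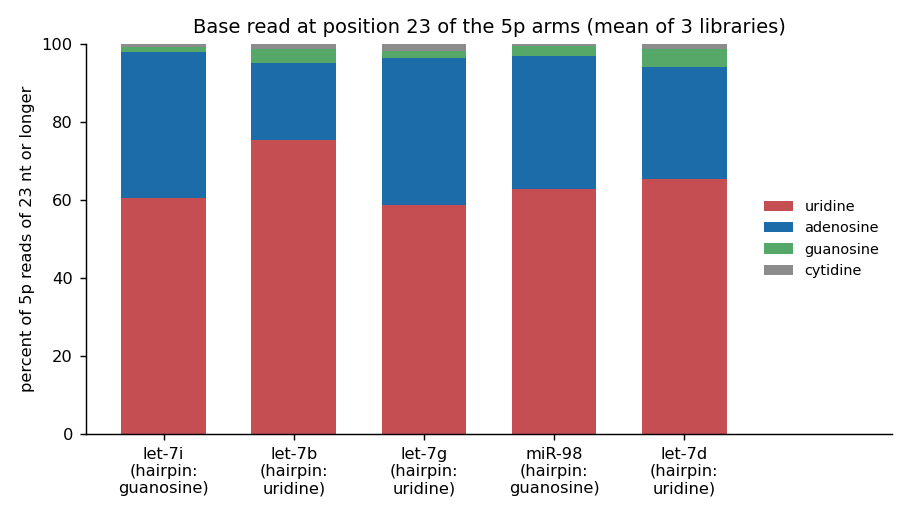
Base read at position 23 in 5p reads of 23 nt or longer, as the mean percent over 3 libraries, with the hairpin's own base named under each member. As plotted, uridine is the most frequent base in all members, also in miR-98 (62.9%) and let-7i (60.6%) where the hairpin has guanosine; if the let-7i reads divided with a place on chromosome 3 are counted in full, its uridine share is 48.4% and its adenosine share 50.1%.

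The 3p arm of let-7b mostly ended in a uridine that the genome does not hold, and that of let-7g did so in replicates 1 and 2. Of the let-7b-3p reads, 70.8%, 71.7% and 75.2% in replicates 1, 2 and 3 ended in a differing U (72.6% ± 2.34), and of the few let-7g-3p reads 65%, 61.8% and 41.7% did (56.1% ± 12.6). For let-7d-3p, let-7i-3p and miR-98-3p the shares were 0.347% ± 0.0289, 1.08% ± 1.86 and 0.789% ± 0.845. No start among 120 others with at least 100 RPM had a higher share than let-7b-3p, where the median was 4.83% and the highest value 68.4%. The other let-7 3p arms lie under 100 RPM and are not among these, and of them let-7f-2-3p had a share of 95.9% ± 1.34 and let-7f-1-3p of 74.8% ± 3.29. The genome around the most abundant 3p starts is shown with base 22 in capitals, because it is a C in let-7b and let-7g and a U in the others.
let-7d-3p: cuauacgaccugcugccuuucUuagg
let-7b-3p: cuauacaaccuacugccuuccCuga
miR-98-3p: cuauacaacuuacuacuuuccUuggu
let-7i-3p: cugcgcaagcuacugccuugcUag
let-7g-3p: cuguacaggccacugccuugcCagg
The commonest read of let-7b-3p, with 47.8%, 49.4% and 52.6% of the reads at its start, and that of let-7g-3p, with 42.1%, 40.6% and 30%, carry the differing U in capitals. In replicate 3, the 21 nt read of let-7g-3p without this U was as frequent, with 6 of 20 reads each.
let-7b-3p, commonest read: cuauacaaccuacugccuuccU
let-7g-3p, commonest read: cuguacaggccacugccuugcU

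In all 5 members the 3p reads of 22 nt or longer thus mostly carried a U at base 22. This U is the base of the genome in let-7d, let-7i and miR-98, and differs from it in let-7b and let-7g. For let-7b-3p, where the genome has C, U was read in 98.1%, 98.4% and 98.0% of 725, 815 and 763 such reads. For let-7g-3p, where the genome also has C, it was read in 13 of 15, 19 of 26 and 9 of 13 reads, or 76.3% ± 9.16, with 95% Wilson intervals from 62.1 to 96.3% in replicate 1, from 53.9 to 86.3% in replicate 2 and from 42.4 to 87.3% in replicate 3. Where the genome has U, it was read in 96.5% ± 0.216 for let-7d-3p, 98.8% ± 1.26 for miR-98-3p and all 18, 24 and 27 reads for let-7i-3p. Reads that stop before base 22 were also present: 22.1% ± 3.05 of the let-7b-3p reads had 21 nt, and let-7i-3p had 37.4% ± 6.28 of 20 nt, 27.1% ± 8.60 of 21 nt and 34.9% ± 6.04 of 22 nt. let-7d-3p and miR-98-3p had 82.6% ± 0.9499 and 95.4% ± 1.23 of 22 nt. Among the other let-7 hairpins with a C at base 22, the U share was 97.2% ± 1.02 in let-7f-1-3p, 100% in every library in let-7f-2-3p, 65.6% ± 0.735 in the reads that let-7a-1-3p and let-7c-2-3p share, and 13.5% ± 3.95 in let-7e-3p. This measure was chosen after the values of the terminal bases were seen.

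**Figure D4:**
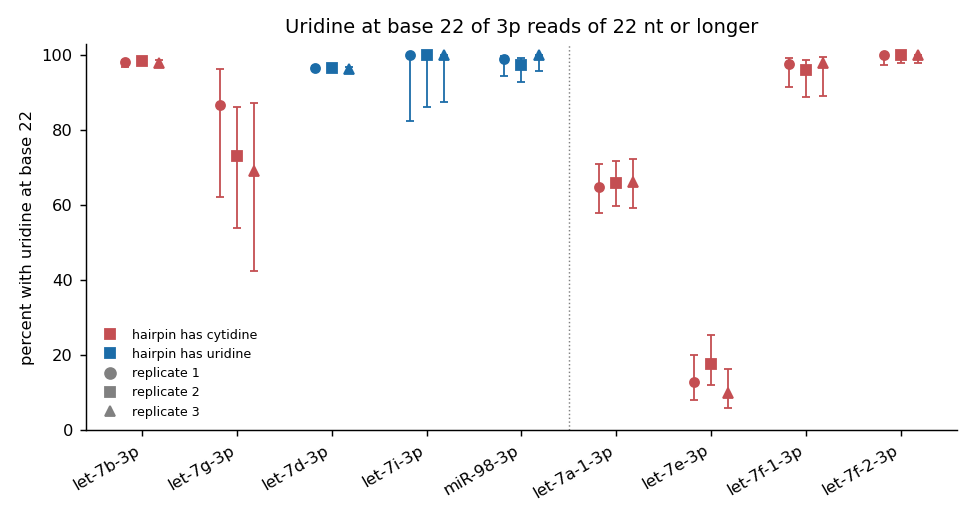
Percent of 3p reads of 22 nt or longer with uridine at base 22 in each library, with 95% Wilson intervals, for the members left of the dotted line and other let-7 hairpins right of it; red marks hairpins with cytidine and blue those with uridine at this base. let-7b-3p lies at 98.0 to 98.4% although its hairpin has cytidine, and let-7g-3p at 69.2 to 86.7% with wide intervals.

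Because the let-7b-3p and let-7g-3p reads mostly have a mismatch, counting only exact alignments lowered these arms more than the others, from 103.2 to 18.4 RPM for let-7b-3p and from 2.55 to 0.775 RPM for let-7g-3p. The 5p share of let-7b moves from 96.2 to 99.1%.

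Inside the reads, the 5p arms of all members shared a mismatch at the same place. Between 15.9% ± 0.229 (let-7d) and 17.7% ± 0.692 (let-7b) of the 5p reads had a mismatch before their last 3 bases, and most of these were a C where the hairpin has A. Counted from the 5′ end, with the hairpin's base first, A10C was read in 14.1% ± 0.428 of let-7b, 12.7% ± 0.239 of let-7d, 13.9% ± 0.399 of let-7g, 14.5% ± 0.0639 of let-7i and 10.1% ± 0.602 of miR-98 reads. miR-98, the member with an A at base 11, also had A11C in 4.92% ± 0.269. On the 3p arms A12C was read in 24.3% ± 1.82 of let-7b, 22.6% ± 2.08 of let-7g, 24.1% ± 3.25 of let-7i and 20.99% ± 5.04 of miR-98 reads. let-7d-3p, which has no A at bases 9 to 12, had an inside mismatch in 2.84% ± 0.519 of its reads. The same mismatch moved with the read position in other miRNAs: over other arms with an A at the position, the median share read as C was 12.2% at base 10 (28 arms, 5.13 to 17.2%), 7.42% at base 11 (21 arms) and 18.4% at base 12 (34 arms, 7.11 to 22.7%), 9.10% at base 6 (28 arms), but 0.0226% at base 13 and 0% at base 5. The cause was not tested.

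**Figure D5:**
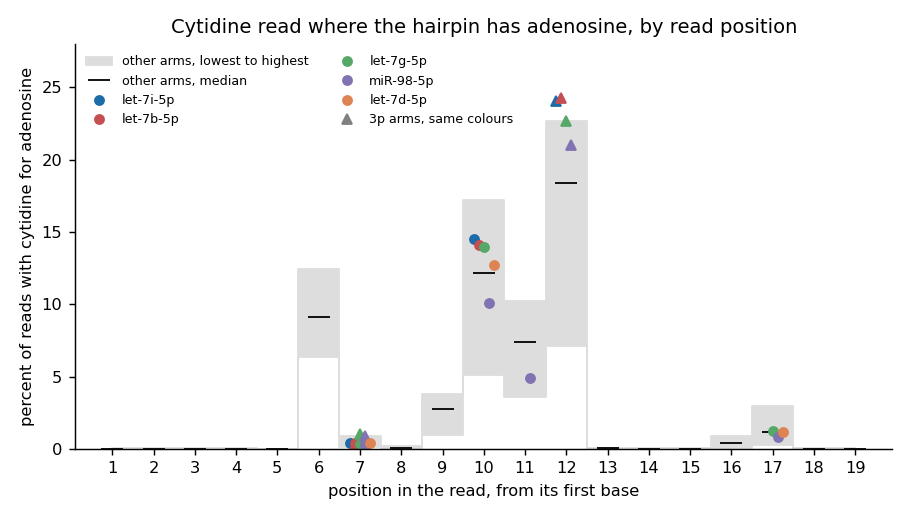
Percent of reads with cytidine where the hairpin has adenosine, by position in the read, for the members (circles 5p, triangles 3p, mean of 3 libraries) and for other miRNA arms (grey range, black median). Members and other arms are high at bases 10 to 12. Other arms are also high at base 6 and close to 0 at bases 13 to 15. No 5p arm of a member has an adenosine at bases 13 to 15. At base 10 the members lie between 10.1 and 14.5%.

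The remaining inside mismatches were few except in let-7b. Mismatches other than A to C were found in 1.61% ± 0.0342 of the 5p reads of let-7d, 1.32% ± 0.0542 of let-7g, 1.30% ± 0.0415 of let-7i and 1.32% ± 0.194 of miR-98, compared with 3.12% ± 0.328 of let-7b. In let-7b, G17C made up 1.62% ± 0.385. Base 17 is where let-7b differs from let-7c, and a C there is a mismatch to both. The 22 nt form of these reads stood with identical values (384, 413 and 287 reads in replicates 1, 2 and 3) at let-7b, let-7c-1 and let-7c-2, so these reads cannot be told apart between let-7b and let-7c.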

How the data were processed

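Small RNA of 3 MIN6 libraries was prepared with the Illumina TruSeq small RNA kit and sequenced on an Illumina HiSeq. The authors trimmed the adaptor with cutadapt, aligned reads without mismatches with Bowtie, realigned the remaining reads near these places with SHRiMP, and divided reads that matched several places equally among them. The submitters' processing notes name mm9. Per place, strand and mismatch pattern, the authors deposited an expected count of reads, not normalized.

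Alignments without a mismatch end 1 base early in the deposited files, and this was corrected. Hairpins were taken from RefSeq (GRCm38.p6) and placed on the mm9 alignments by the position at which no mismatching base equalled the hairpin's base, from starts with at least 20 reads, and 5′-starts were also matched within 0.2% to the authors' expression table, which placed 149 of 203 names. Where a hairpin could be placed at 2 positions without conflict, as miR-98 could, the place with most mismatching bases to compare was taken. The table also gave this place for every let-7 hairpin but let-7a-2, whose values rest on the mismatches alone. GRCm38 served for sequences and host gene names only. RPM is relative to the summed expected counts of a library. The 5p arm includes starts up to 5 bases before the reference start, a terminal mismatch is a mismatch at the last base, and inside mismatches lie before the last 3 bases. Intervals are 95% Wilson intervals; they and the limit of 3 reads that a count of 0 allows cover counting error only, since reads carry no molecular identifiers. For other arms, the A to C share used arms with at least 1000 reads at the position.

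Named were both arms of all members, starts with at least 1% of an arm and 10 reads in every library, lengths and terminal bases with 1% of the 5p reads, the other let-7 hairpins, and the 2 starts of at least 100 RPM most like each 5p arm. Some smaller values were added after they were seen. With 1 condition, no test was run. The members, although picked by gene name, and the lists and measures were chosen with earlier results of these data known. The scripts used Python 3.11.15, numpy 2.4.6, pandas 2.3.3, scipy 1.17.1 and matplotlib 3.10.9, and were tested on simulated data. Alternatives were whole-number, exact, 16 to 27 nt or 20 nt and longer reads, other starts, denominators and end definitions, and leaving out each replicate. The U share at base 22 of the 3p arms and the full counting of divided forms were added after seeing the data.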

Additional observations from a re-analysis of the deposited data

How the results depend on the processing

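The order of the 5p levels of the members was the same under all 9 alternatives. The other denominators and the leaving out of a replicate could not change it, since every library has this order by itself. Their summed 5p level was 12191 RPM, and became 9543 RPM with exact alignments only, 17037 RPM relative to the exact reads and 18897 RPM relative to the mapped reads without the miR-375 start. The summed 3p level moved from 507 to 389.8 RPM with exact alignments only. As means over the members, the share of the 5p reads at the most abundant start moved from 99.24 to 99.51% in reads of 20 nt or longer, and the share of 22 nt from 75.9 to 79.7% with exact alignments only and to 16.7% when the ends of exact alignments were taken as deposited, since these end 1 base early. The mean share of 5p reads with a terminal mismatch moved from 4.996 to 5.37% with a mismatch in any of the last 3 bases, to 4.62% with whole-number values and to 4.83% without reads with a further mismatch. With whole-number values, U among terminal mismatches moved from 35.1 to 34.0% on average and in let-7b from 40.1 to 27.6%, because the divided forms drop out, and inside mismatches from 16.8 to 16.6%. The share of reads on the 5p arm and the spread over libraries moved by less than 1 SD on average. Of 340 values of single members under an alternative, 275 moved by less than 1 SD and 65 by 1 SD or more. The 275 include the values with 1 replicate left out, which could not move by 1 SD, so this count overstates the stability. Without each replicate in turn, every mean or sum over the members moved by less than 1 SD. Leaving out 1 of 3 values cannot move their mean by 1 SD, so this does not measure stability. The let-7b level was 2337 RPM without replicate 2. No paired analysis was possible because there is no second group to pair with.

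Depth limits the weakest arm most: let-7g-3p had 20 to 34 reads per library. A value that is a whole number can still belong to a divided read, so the share of undivided reads is an upper limit.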
